A study of Mus musculus with 12 samples.

Results

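The BCL2 family sets the point at which a cell commits to the mitochondrial route of apoptosis. Its guardians (Bcl2, Bcl2l1 and Mcl1) hold the outer mitochondrial membrane intact by binding the pro-apoptotic proteins. Its effectors (Bax and Bak1) form the pores through which cytochrome c leaves the mitochondrion. Its BH3-only proteins (Bbc3, Pmaip1, Bid, Bcl2l11 and Bad) carry damage and stress signals to the other two classes. Neurons depend strongly on this balance, and the transcription of several BH3-only genes is a known entry point of p53 and of stress signalling. The 10 genes were taken by symbol, as a family chosen for its function, from a table of 25239 genes, and all 10 are listed there. Earlier results of these data were known when the family was chosen.

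HT22, a mouse hippocampal cell line labelled as wild type, was exposed to 800 μM mesaconitine (MA, a diterpenoid alkaloid of Aconitum plants) for 72 h or left without MA. The dose and the time are given in the study's methods. Each condition gave 3 input libraries, taken here as the mRNA-seq data, and 3 libraries after immunoprecipitation (IP) with an antibody to N6-methyladenosine (m6A), 12 in all. All libraries come from 1 cell line, and the sources used here do not say whether the replicates were separate cultures, so the spread may be technical. The deposited tables hold the authors' comparison of the groups and no value of a single library, so the error of each fold change is the authors' standard error (SE) and the depth per library was not analysed here. In bulk RNA, fewer cells that express a gene and less RNA per cell cannot be told apart. Of 8 neuronal marker genes, 5 were listed at 0, Map2, Snap25 and Dcx among them, and 7 were under a base mean of 10. Tubb3, a neuronal tubulin, stood at 473 and the mesenchymal genes Col1a1 and Vim at 100160 and 110058. The glial genes Gfap, Aqp4 and Mbp were also under 10.

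A gene was called changed at an unadjusted p under 0.05 in the authors' DESeq2 comparison with a change of more than 1.2-fold, and the adjusted p is given beside it. The 1.2-fold limit was taken from an earlier analysis of the same data, so it was not set independently of them. The header of the expression table does not name the numerator, and the deposited log2 fold changes were read with their sign reversed, as MA over control. In the m6A data, which do name the treated group, IP reads per peak after MA, set against those in control cells on the log2 scale, had a Spearman's rho of 0.276 with the reversed expression change over 2472 peaks. Input reads per peak, the same kind of library as the expression table, gave a rho of 0.010, so this closer check did not recover a direction. IP reads depend on m6A as well as on expression, so the rho of 0.276 is a weak guide. The peaks share their libraries and are not independent replicates. Read with the deposited sign, every direction of expression below would turn.

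MA was accompanied by higher expression of 2 pro-apoptotic members, the effector Bax and the BH3-only gene Bbc3, while no guardian was called. Bax was 1.25-fold and Bbc3 1.51-fold higher after MA. No member was called lower. Of the 9 members with a value, 2 were called higher, where 6.8% of the 16167 genes tested were, and 0 were called lower, where 7.07% of all genes tested were. Of these 9, 6 had a log2 fold change above 0 and 3 below, and their median was 0.02, against -0.01 over all genes. Both calls held at an adjusted p under 0.05, where 4.73% of all genes tested were called higher and 5.2% lower.

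**Figure D1:**
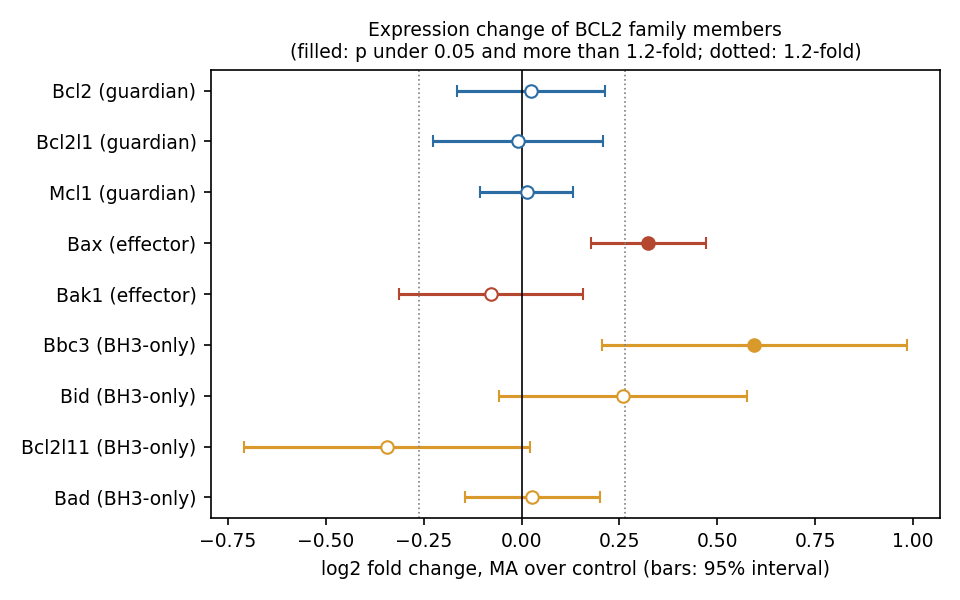
Log2 fold change of each of the 9 members with a value, MA over control, with bars for the 95% interval from the authors' SE; filled points passed the call and dotted lines mark 1.2-fold. Bax (0.32) and Bbc3 (0.59) lie clear of 0, and the 3 guardians lie between -0.01 and 0.02.

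The 3 guardians had log2 fold changes between -0.01 and 0.02. Bcl2, the founding guardian (chr1:106538178-106714274, minus strand, GRCm38), had implied group means of 1254 normalised counts in control cells and 1275 after MA. These group means were derived from the base mean, the authors' mean normalised count over the compared libraries, and the fold change, with 3 libraries taken in each group. Its log2 fold change was 0.02 ± 0.10 (SE, n = 3 per group), with a 95% interval of -0.16 to 0.21 and an adjusted p of 0.935 by DESeq2. Bcl2l1 (chr2:152780668-152831728, minus strand), which encodes BCL-XL, had 1557 and 1547 normalised counts, a log2 fold change of -0.01 ± 0.11 and an interval of -0.23 to 0.21.

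Mcl1 (chr3:95658788-95663176, plus strand) encodes a short-lived guardian whose protein is made and destroyed quickly. It had 7934 normalised counts in control cells and 8005 after MA, a log2 fold change of 0.01 ± 0.06 and an interval of -0.11 to 0.13. The intervals of all 3 guardians lay between 0.85-fold and 1.16-fold, so a change of 1.2-fold in either direction lay outside each of them. Smaller changes are not resolved by these errors. This holds for the deposited values only. With all log2 fold changes lowered by 0.1, a setting described at the end, a decrease of 1.2-fold would lie inside the intervals of Bcl2 and Bcl2l1.

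Of the effectors, Bax rose and Bak1 was not called. Bax (chr7:45461697-45466898, minus strand), whose protein moves from the cytosol to the mitochondrion when activated, had 1810 normalised counts in control cells and 2265 after MA. Its log2 fold change was 0.32 ± 0.07 (DESeq2 adjusted p = 2.6e-04), an increase of 1.25-fold with a 95% interval of 1.13 to 1.39. The SE of Bax was small for its level, at percentile 9.4 among the 500 genes nearest in base mean. Bak1 (chr17:27019810-27029009, minus strand), the effector that resides on the mitochondrial membrane, had 1447 and 1371 normalised counts. Its log2 fold change was -0.08 ± 0.12, with an interval of -0.31 to 0.16 and an adjusted p of 0.784 in the DESeq2 table.

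Among the 5 BH3-only genes, 1 rose, 3 were not called and 1 had no value. Bbc3 (chr7:16308393-16318205, plus strand), which encodes PUMA, a p53 target that binds every guardian, had 206 normalised counts in control cells and 311 after MA. Its log2 fold change was 0.59 ± 0.20 (DESeq2 adjusted p = 0.0225), or 1.51-fold with an interval of 1.15 to 1.98. It was the least abundant of the members with a value and the one with the widest SE. Pmaip1 (chr18:66458533-66465565, plus strand), which encodes NOXA, a partner of MCL1, was listed at a base mean of 0 and carries no fold change. No gene of 76 ribosomal protein genes was listed at 0, and 35.9% of all genes in the table were.

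Bid (chr6:120891930-120916853, minus strand), the BH3-only protein that caspase-8 cleaves, and Bcl2l11 (chr2:128126038-128162547, plus strand), which encodes BIM, had the smallest p among the members outside the threshold, as Bax and Bbc3 had inside it. For Bid the implied means were 705 and 843 normalised counts, with a log2 fold change of 0.26 ± 0.16 (DESeq2 adjusted p = 0.335). For Bcl2l11, a target of FOXO factors, they were 1525 and 1202, with a log2 fold change of -0.34 ± 0.19 (DESeq2 adjusted p = 0.241). The 2 genes thus had values of opposite sign, with intervals of -0.06 to 0.58 and -0.71 to 0.02 that both include 0. Their SEs were wide for their level, at percentiles 81.8 and 90.0 among the 500 genes nearest in base mean. Bad (chr19:6941861-6951899, plus strand), a BH3-only protein held in check by phosphorylation and 14-3-3 binding, had 1854 and 1889 normalised counts and a log2 fold change of 0.03 ± 0.09.

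**Figure D2:**
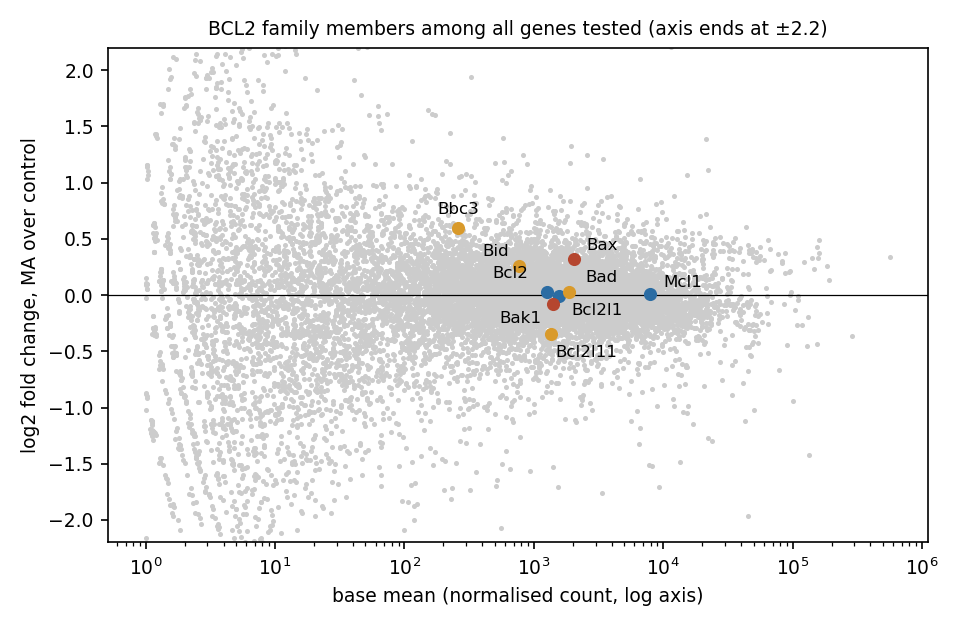
Log2 fold change, MA over control, against base mean (log axis) for genes tested with a base mean above 1 in grey, with the 9 members coloured by class (guardians blue, effectors red, BH3-only genes amber). Bax and Bbc3 sit above the others, and Mcl1 has the highest base mean of the members, at 7969.

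Per kilobase of exon, the members spanned a wide range of levels. Mcl1 was the highest with a base mean of 2332 per kb, followed by Bax with 1293, Bad with 732, Bak1 with 585 and Bcl2l1 with 338. The lower part of the order was Bid with 218, Bcl2l11 with 170, Bcl2 with 138 and Bbc3 with 122 normalised counts per kb, with Pmaip1 at 0. The order used the union of exons of each gene in GENCODE M21. Over the length of 1 coding transcript per gene, Bcl2l1 (604) moved ahead of Bak1 (590) and the other ranks stayed. Whether neighbours in this order differ beyond their spread could not be tested, since no value of a single library is held. Per kb of exon union, the implied level of Bbc3 was 97 in control cells and 146 after MA, and that of Bcl2 was 137 and 139.

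**Figure D3:**
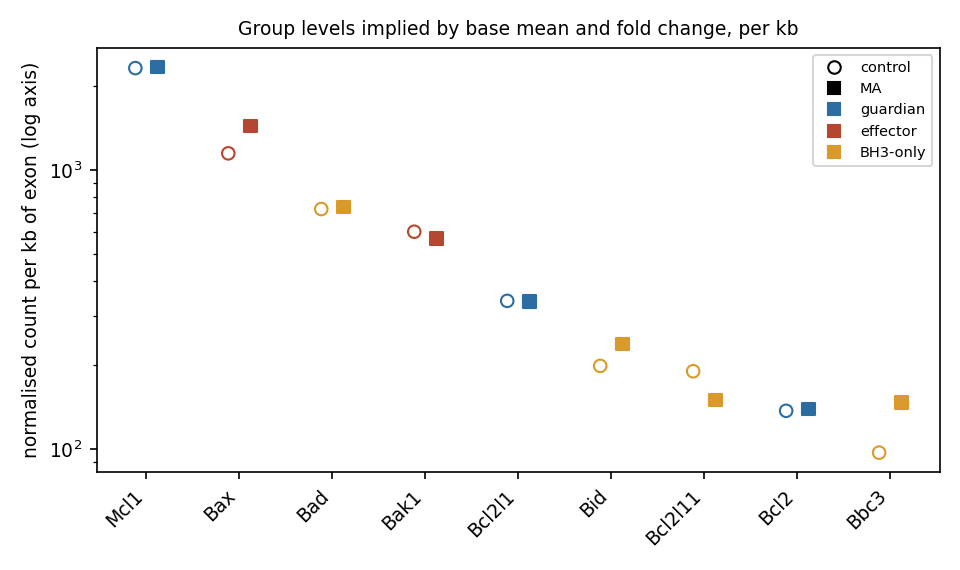
Implied control (open circles) and MA (filled squares) levels of the 9 members with a value, in normalised counts per kb of exon on a log axis, ordered by base mean per kb and coloured by class. Mcl1 leads at 2332 per kb over both groups, and the gap between the groups is widest for Bbc3; no error bars are drawn because single-library values are not held.

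The balance between pro-apoptotic members and guardians was compared by differences of log2 fold changes, over 10 pairs, of which Bax against Bak1 was added after the values were seen. These intervals treat the errors of both genes as independent, which libraries in common need not give, so no p is attached. Between the effectors, Bax exceeded Bak1 by 0.40 ± 0.14 (combined SE), with an interval of 0.13 to 0.68. Bax exceeded Mcl1 by 0.31 ± 0.10, with an interval of 0.12 to 0.50. Bax exceeded Bcl2 by 0.30 ± 0.12 (0.06 to 0.54) and Bcl2l1 by 0.33 ± 0.13 (0.07 to 0.60). The ratio of Bax to Bcl2 transcripts, often used as an index of readiness for apoptosis, was thus 1.23-fold higher after MA. The guardians had log2 fold changes between -0.01 and 0.02, so this ratio and the differences from guardians largely restate the rise of Bax. The values are RNA, and readiness for apoptosis was not tested.

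Bbc3 exceeded Mcl1 by 0.58 ± 0.21, with an interval of 0.17 to 0.99. The other effector gave no such difference, as Bak1 minus Mcl1 was -0.09 ± 0.13 (-0.35 to 0.17) and Bak1 minus Bcl2l1 was -0.07 ± 0.16 (-0.39 to 0.25). For Bid, Bcl2l11 and Bad against Mcl1 the differences were 0.25 ± 0.17, -0.36 ± 0.20 and 0.01 ± 0.11, and each interval included 0.

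Several members share exon bases with another gene. The library kit keeps the strand, and whether the counting used it is not given in the sources used here, so reads of opposite-strand neighbours may not be told apart. Bid shares 17.7% of its exon bases with Bcl2l13 on the other strand, Bak1 25.5% with Ggnbp1 and Bad 20.5% with Gpr137. These neighbours had log2 fold changes of 0.06, 1.32 and 0.53, at base means of 4131, 30.1 and 296. Bcl2l13 was thus more abundant than Bid, whose base mean was 774, so the Bid value is the most exposed if strand was not used. Bax shares 12.2% of its exon bases with Gm45808, a coding model on the same strand, and 13.8% of the 50-base stretches of its coding transcript are found there, so the Bax value is uncertain to that extent. Bbc3 shares no such stretch with another gene.

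Bax and Bbc3 rose together, and their promoters are shown for that reason. The sequences are from RefSeq on GRCm38.p6, 5′ to 3′, the 250 bases upstream of a start site. Capitals mark a match to the p53 half-site, searched by its consensus on both strands. Bax lies at chr7:45466899-45467148 (minus strand) and Bbc3, at the first of its 3 start sites, at chr7:16309333-16309582 (plus strand).
Bax: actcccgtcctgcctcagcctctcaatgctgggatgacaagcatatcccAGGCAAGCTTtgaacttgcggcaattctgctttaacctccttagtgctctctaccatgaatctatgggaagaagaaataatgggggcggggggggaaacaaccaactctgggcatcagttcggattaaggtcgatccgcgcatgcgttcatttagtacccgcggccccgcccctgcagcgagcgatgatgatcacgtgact
Bbc3: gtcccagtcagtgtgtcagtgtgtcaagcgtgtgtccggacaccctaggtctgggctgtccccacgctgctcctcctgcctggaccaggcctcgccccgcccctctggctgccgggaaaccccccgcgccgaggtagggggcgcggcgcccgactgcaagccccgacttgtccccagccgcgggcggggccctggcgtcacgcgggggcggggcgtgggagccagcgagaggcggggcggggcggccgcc

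The half-site in Bax begins at position -201 from the start site. Of 15 promoter windows of 9 members, each of 300 bases, 1 held such a match, and 8.36% of 32851 promoters of all genes did. Pmaip1, which had no fold change, was left out of these windows by choice, so the counts do not cover the whole family. The letters TGATGNAA, a core bound by ATF4 and CHOP, were in 0 of the 15 windows and in 3.97% of all promoters. The Bax window had 54.0% G and C and the Bbc3 window 76.4%. A match is a description of the letters and not of binding.

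The genes around the family were counted from 7 lists by role. Of the other BCL2 family genes, 5 of 13 were listed at 0 (Bcl2a1a, Bcl2a1b, Bcl2a1d, Bcl2l10 and Bik) and 0 of the 8 with a value were called. Over all genes tested, 6.8% were called higher and 7.07% lower. The guardian Bcl2l2 had a log2 fold change of 0.18 ± 0.12, the effector-like Bok 0.23 ± 0.18 and the BH3-only gene Bmf -0.28 ± 0.19. Bcl2l13 had 0.06 ± 0.06 and Bcl2l12 0.04 ± 0.33. Hrk, Bcl2l14 and Bcl2l15 had base means of 3.18, 0.676 and 4.79, too low for their fold changes to be read.

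Downstream of the mitochondrion, the cytochrome c transcript rose. Cycs, whose product is released through BAX and BAK pores and assembles the apoptosome, had 3417 normalised counts in control cells and 4462 after MA, with a log2 fold change of 0.38 ± 0.07 (DESeq2 adjusted p = 1.4e-07). The initiator caspase gene Casp8, listed with the caspases although its protein cleaves BID and so acts upstream, fell by 0.29 ± 0.10 on the log2 scale. Its DESeq2 adjusted p was 0.0386. Dffa, the inhibitor of the apoptotic nuclease, passed the call at -0.29 ± 0.12 but had an adjusted p of 0.0917 in the DESeq2 table. In all, 1 of the 14 apoptosome and caspase genes was called higher and 2 lower, beside 6.8% and 7.07% of all genes tested. The median of the list was -0.13.

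Of 5 inhibitors of apoptosis, 0 were called higher and 1 lower, beside 6.8% and 7.07% of all genes tested. The gene called lower was Xiap, a direct inhibitor of caspases that cytosolic SMAC relieves. It had 1599 normalised counts in control cells and 1050 after MA, a log2 fold change of -0.61 ± 0.15 (DESeq2 adjusted p = 6.5e-04). Birc6, named after its values were seen, had -0.26 ± 0.05, an adjusted p of 4.8e-05 by DESeq2 and a change just short of 1.2-fold. Diablo, which encodes SMAC and is listed with the apoptosome genes, was also named after its values were seen. It had -0.24 ± 0.09, a DESeq2 adjusted p of 0.0479 and a change under 1.2-fold. Without a fold threshold 5 genes of the apoptosome and caspase list were lower and 1 higher, beside 10.9% and 9.98% of all genes. Casp8, called lower above, was counted with the caspases and not with the death receptor genes. Of 8 death receptor genes 0 were called, also 0 at an unadjusted DESeq2 p under 0.05 with any fold. The smallest p values of that list belonged to Ripk1 (-0.13 ± 0.08) and Cflar (-0.19 ± 0.18), with DESeq2 adjusted p of 0.368 and 0.594.

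Of 14 measured genes of p53 and its other targets, 4 were called higher and 1 lower, beside 6.8% and 7.07% of all genes tested. The median log2 fold change of the 14 was 0.15. Gadd45a, which acts in growth arrest after DNA damage, rose by 0.73 ± 0.13 and Mdm2, the ubiquitin ligase of p53, by 0.67 ± 0.17, with DESeq2 adjusted p of 1.8e-06 and 0.0013. Sesn2 (0.35 ± 0.15) and Trp53inp1 (0.37 ± 0.18) passed the call with DESeq2 adjusted p of 0.107 and 0.174. The kinase gene Plk2 fell by 0.46 ± 0.07 from 53112 normalised counts. Trp53 had -0.01 ± 0.11 and the cell cycle inhibitor Cdkn1a 0.19 ± 0.14, neither called and both named after their values were seen.

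Of 8 stress factors that act on BH3-only genes, 3 were called higher and 1 lower, beside 6.8% and 7.07% of all genes tested. Trib3, a pseudokinase induced by ATF4 and CHOP, rose by 1.03 ± 0.15, from 377 normalised counts in control cells. Ddit3, which encodes CHOP, rose by 0.48 ± 0.14 and Atf4 by 0.36 ± 0.05, with DESeq2 adjusted p of 0.00467 and 9.3e-10. Foxo1 fell by 0.59 ± 0.13 (DESeq2 adjusted p = 4.6e-05), while Foxo3 had -0.09 ± 0.10.

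Of 16 binding and turnover partners of the family, 0 were called higher and 2 lower, beside 6.8% and 7.07% of all genes tested. Bnip3, a mitophagy receptor related to the BH3-only proteins, fell by 0.37 ± 0.07 (DESeq2 adjusted p = 1.1e-06). Dynll1, the dynein light chain that tethers BIM, fell by 0.27 ± 0.07 (DESeq2 adjusted p = 9.9e-04). Vdac2, the mitochondrial channel that binds BAK and BAX, had 0.25 ± 0.06 and an adjusted p of 2.4e-04 by DESeq2 with a change under 1.2-fold, and was named after its values were seen. Without a fold threshold Vdac2 was the 1 partner called higher and 6 were lower, beside 9.98% and 10.9% of all genes.

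**Figure D4:**
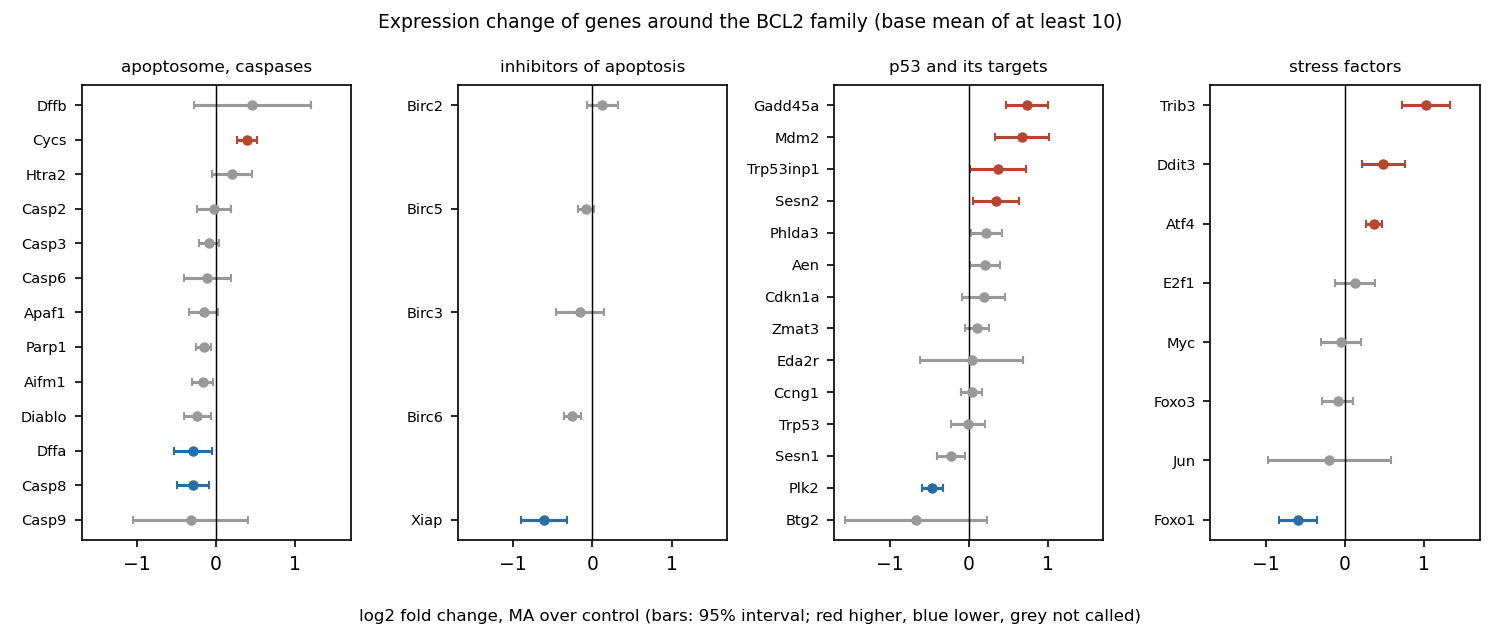
Log2 fold change, MA over control, of the genes of 4 lists around the family with a base mean of at least 10, with 95% intervals; red points were called higher, blue lower and grey not called. Cycs (0.38), Mdm2 (0.67), Gadd45a (0.73) and Trib3 (1.03) lie to the right, and Xiap (-0.61) and Foxo1 (-0.59) to the left.

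In the deposited comparison of m6A peaks, 2 of the 10 members carried a peak, Bak1 and Bbc3, with 1 peak each. That comparison holds 2643 peaks on 2171 genes, and the expression comparison lists 25239 genes. A peak is a stretch of transcript in which the authors' peak caller exomePeak2 found more IP than input reads, and its reads are pooled over the replicates. Both peaks lay in the last exon, in the 3′ UTR. They were shallow, with 128 reads over the 4 groups for Bak1 and 122 for Bbc3, against a median of 231 over all peaks. The other 8 members had no peak in the table, which at this depth does not show that they lack m6A. The paper reports more m6A peaks than are held here, so a peak on these members may not be listed.

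The letters in these peaks that match DRACH, the motif in which m6A is mostly found (A, G or T, then A or G, then A and C, then A, C or T), are shown in capitals within 25 bases of GRCm38.p6. Bak1 is on the minus strand, with its sites at chr17:27019989-27020013 and chr17:27019973-27019997, in a peak at chr17:27019962-27020011. Bbc3 is on the plus strand, with sites at chr7:16317825-16317849, chr7:16317851-16317875 and chr7:16317913-16317937, in a peak at chr7:16317784-16317983. Bcl2l13 was the family relative whose peak was called, with its site at chr6:120888411-120888435 (plus strand) in a peak at chr6:120888410-120888459.
Bak1 site 1: ttcctccccgGAACCtatgattact
Bak1 site 2: atgattacttGAACCccaccttcac
Bbc3 site 1: ggaggggtccAGACTgtgaatcctg
Bbc3 site 2: gctctgcccgGGACCaccccccccc
Bbc3 site 3: agagcacgtgTGACCactggcattc
Bcl2l13 site 1: gatttagcaaTGACAcctctgatgg

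Such letters are frequent. Of 895 peaks of 50 bases, the length of the Bak1 and Bcl2l13 peaks, 60% held a match on the transcribed strand, and 22 of 22 peaks of 200 bases, the length of the Bbc3 peak, did. Which of these adenosines is methylated is not resolved by fragments of this size.

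Neither member peak was called changed. In the table of peaks, 25.2% of 2642 peaks tested were called higher and 5.94% lower by the same threshold, and the counts for the members were 0 and 0. The Bak1 peak held 21 input and 39 IP reads in control cells and 31 input and 37 IP reads after MA. Its log2 ratio of IP to input, scaled by the authors' size factors, was 1.27 in control cells and 0.11 after MA. The change deposited by the authors was -0.58, with an adjusted p of 0.278 from exomePeak2.

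The deposited change was smaller in size than the difference of the deposited ratios in 99.8% of peaks, Bak1 included. Computed from the pooled reads with the authors' scaling, the change of the Bak1 peak was -1.18, with a 95% interval of -2.21 to -0.15. That interval covers counting error only and leaves out the spread between replicates. The Bbc3 peak held 27 input and 32 IP reads in control cells and 23 and 40 after MA, and its ratios of 0.64 and 0.66 differed by less than the counting error. Its deposited change was 0.01 (adjusted p = 0.989, exomePeak2), and its sign depended on the scaling, at -0.30 when the reads were scaled by their sum over all peaks. With the authors' scaling the interval from the reads was -1.03 to 1.06, which still includes a change of 2-fold in either direction. Thus Bbc3 transcript rose by 1.51-fold with no m6A change detectable at this depth, and Bak1, whose m6A ratio was lower after MA without being called, had no called change in expression.

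Of the 89 genes in the lists together with the members, 7 carried a peak. Peaks lay on 2171 genes in all, where the expression comparison lists 25239 genes. The peak of Bcl2l13, a mitochondrial relative of the family that acts in mitophagy, was called higher. It held 26 input and 20 IP reads in control cells and 8 and 40 after MA, so its log2 ratio went from -0.00 to 2.17. The deposited change was 1.14, which passed the unadjusted threshold with an adjusted p of 0.103 from exomePeak2, and the change rests in part on only 8 input reads. The 4 other peaks, on E2f1, Huwe1, Myc and Tnfrsf10b, were not called, and these genes are named after their values were seen.

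**Figure D5:**
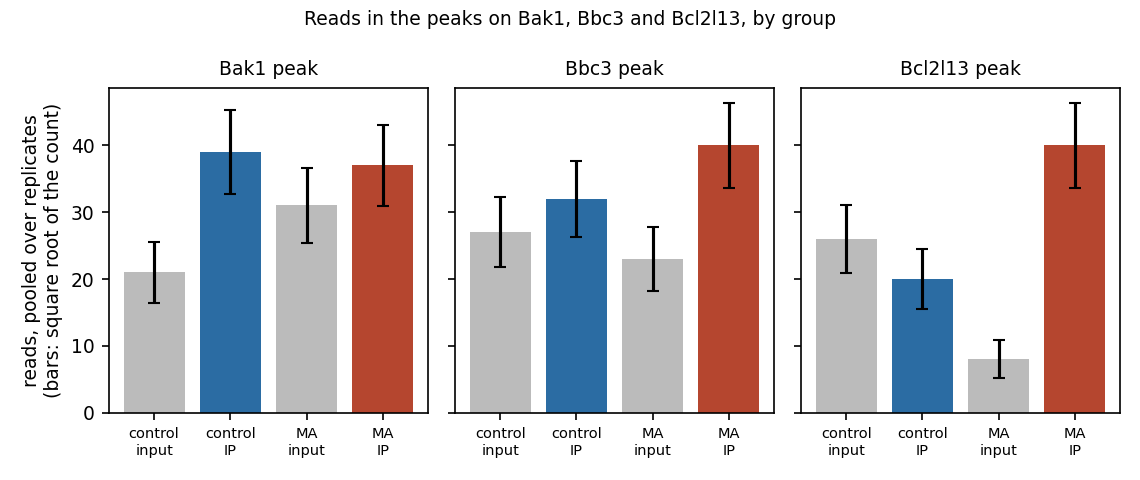
Reads in the peaks on Bak1, Bbc3 and Bcl2l13 in the 4 groups, pooled by the authors over replicates and not scaled for depth, with bars of the square root of the count for counting error. The IP bars of Bak1 (39 and 37) and Bbc3 (32 and 40) overlap within these errors, and Bcl2l13 has 8 input reads after MA.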

How the data were processed

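Expression and m6A were measured in 12 libraries of HT22 cells in 4 groups of 3. Reads were trimmed with fastp, aligned to mm10 with HISAT2, quantified with StringTie and compared with DESeq2 by the authors. The deposited base mean is a normalised signal. The log2 fold changes, SEs and p-values are likewise DESeq2 output deposited by the authors. For m6A, the authors called peaks with exomePeak2 (a Poisson model), and the deposited counts of reads per peak are pooled over replicates. The log2 ratios and changes of the peaks were deposited by the authors too. Tool versions are not given in the sources used here. Because no value of a single library is held, no count model was run, and the authors' comparison columns were used. Per-library columns left out number 0. The study's supplementary list of genes carries the opposite sign to the table, as the reading used here, with a near-constant offset in log2 fold change whose origin was not tested.

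Group means, 95% intervals (normal, from the SE), pair differences and pooled-read changes (a log ratio of 4 Poisson counts) were computed with Python 3.11.15, numpy 2.4.6, pandas 2.3.3 and scipy 1.17.1. The pooled-read code was run on simulated Poisson counts without spread between replicates. That run checks the code and not the intervals for real libraries. Calls needed p under 0.05 and more than 1.2-fold. All 10 members are named, with every relative that has a value, each called gene of the other lists or otherwise the 2 with the smallest p, and peaks on named genes. Members and lists were chosen with earlier results of these data known. Gene models are GENCODE M21, promoters RefSeq. Alternatives were an adjusted p, other folds, centring, a base mean of at least 100 and pooled reads, with a shift by 0.1 added after seeing the data. 1 gene of the lists is not reported here.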

Additional observations from a re-analysis of the deposited data

How the results depend on the processing

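Of 87 values recomputed under an alternative, 69 kept their direction and their side of the threshold or, for counts of calls, stayed within 1.5 times. These 69 include the pair differences, which centring on the median leaves unchanged by construction, so they are no test of the processing. Bax and Bbc3 stayed called under an adjusted p, without a fold threshold, with a base mean of at least 100 and after centring on the median of all genes. Of these settings, the adjusted p could have removed the calls. The base mean setting was no separate check. Bax and Bbc3 had base means of 2038 and 258, so both passed its limit and the adjusted p was only recomputed over 10430 genes. Leaving out the fold threshold only loosens the rule, and centring on a median of -0.0123 raised both changes. Above 1.5-fold 1 member remained higher, Bbc3, beside 1.66% higher and 3.01% lower of all genes tested. With all log2 fold changes lowered by 0.1, near the offset of the study's own list and chosen after seeing the data, 1 member was called higher, Bbc3, while Bax stood at 0.22, under 1.2-fold. The same shift turned Bcl2 to -0.076, Mcl1 to -0.087 and Bad to -0.073, and centring turned Bcl2l1 to 0.0034, so these directions are not resolved. The shift would also bring a decrease of 1.2-fold inside the intervals of Bcl2 and Bcl2l1. With that shift the genes called were 4.4% higher and 10.1% lower. The cause of that offset was not tested.

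With an adjusted p, 2 p53 targets were higher and 1 apoptosome or caspase gene was lower, beside 4.73% higher and 5.2% lower of all genes. Without a fold threshold the lower calls were 5 among apoptosome and caspase genes, 2 among inhibitors of apoptosis, 2 among p53 targets and 6 among partners, while 6 p53 targets and 1 partner were higher, beside 10.9% lower and 9.98% higher of all genes at that setting. With p from the pooled reads 1 member peak, Bak1, was called lower, also 1 after centring; the cause was not tested. Computed from the reads scaled by their sum, the change was -1.495 for Bak1 and turned to -0.304 for Bbc3. With p from the pooled reads 989 peaks were called higher and 307 lower, and after centring 596 and 605, against 665 and 157 in the deposited comparison. No paired analysis was possible because the columns are pooled over replicates and carry no replicate number, and for the same reason no replicate could be left out.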
